A study of Mus musculus with 18 samples.

Results

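Beta cells were sorted from the islets of mice that lack the insulin receptor in the liver (LIRKO), and the comparison here was between LIRKO mice on a high-fat diet (HFD) and LIRKO mice on chow. It rested on 7 of the series' 18 RNA-seq libraries: 3 labelled LIRKO_HFD and 4 labelled LIRKO_Chow, chosen by genotype and diet label and by no measured value. The remaining libraries came from control mice (Ctrl), 6 on chow and 5 on HFD, and served to set the spread of each gene and to show the same diet change without the knockout. All groups shared the same cell preparation: islets were purified, kept overnight in culture, dispersed, and sorted on scatter and on the cells' own fluorescence. The labels give no age, sex, fat content or length of diet, no driver for the liver deletion, and no number of mice per library. Nothing in them says that libraries of a group came from separate animals, and part of the spread behind the p-values may then be technical.

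A liver without insulin receptors cannot answer insulin, and LIRKO mice are known for high circulating insulin and enlarged islets with dividing beta cells. Beta cells themselves keep their receptors for insulin and for insulin-like growth factor 1 (IGF1), which signal through the phosphoinositide 3-kinase and ERK kinase pathways. High-fat feeding also raises the demand on beta cells, which respond by making more insulin, by adjusting the protein-folding and amino acid stress pathways, and in young mice by division.

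Of 53090 gene identifiers in the table, 19284 passed the filter on low counts and were tested. Total counts ran from 34790225 to 51714775 in the 7 LIRKO libraries and from 19490235 to 43987306 in the Ctrl libraries. Insulin transcripts made up 14.3% to 16.9% of counts on chow and 10% to 16.3% on HFD in LIRKO, and the summed level of 10 beta cell markers was 171000 to 221000 CPM (counts scaled to a common library total) on chow and 110000 to 209000 CPM on HFD. The insulin receptor gene Insr, deleted in another tissue, checks no label in these cells: it stood at 60.4, 58.1, 55.0 and 59.8 CPM on chow and 54.5, 52.4 and 54.0 CPM on HFD, a log2 difference of -0.12 (adjusted p = 0.76).

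Several libraries stood apart. The LIRKO_Chow libraries formed close pairs, replicates 1 with 2 and 3 with 4: the spread of log2 ratios over 13424 well-counted genes (a scaled median absolute deviation) was 0.108 and 0.121 within the pairs and 0.202 to 0.294 across them. Both pairs still differed by more than counting noise, with squared differences 3.29 and 3.39 times those that counting alone gives, against 8.46 or more for every other pair of libraries of one group. This does not tell whether the libraries of a pair came from separate animals or from the same sample. They were kept as 4 libraries, so the main counts and adjusted p treat them as independent. The count of genes past the threshold is also given with each pair summed, which leaves 2 chow libraries. LIRKO_HFD replicate 1 lay farther from replicates 2 and 3 (0.402 and 0.452) than these did from each other (0.257). Among controls, Ctrl_HFD replicates 1 and 2 differed from the other 3 by 0.697 to 0.896. The effect of summing the pairs and of leaving libraries out is given with the counts of genes.

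On HFD, 204 genes (1.06% of those tested) were higher in LIRKO beta cells and 188 (0.975%) were lower, at an adjusted p under 0.05 in edgeR's quasi-likelihood test with Benjamini-Hochberg adjustment. The genes that rose were mostly of low level, with a median of 1.84 CPM on chow and 5.7 CPM on HFD, while those that fell had a median of 33.9 CPM on chow and 15 CPM on HFD; all tested genes had a median of 9.3 CPM on chow. The median change was 1.64 on the log2 scale for the genes that rose and -1.20 for those that fell. Changes past 2-fold were measured for 169 of the genes that rose and 118 of those that fell. Protein-coding genes made up 189 of the 204 that rose and 176 of the 188 that fell, beside 14567 of the 19284 tested. The genes that fell were longer, with a median span of 36776.5 bp, against 20499 bp for those that rose. All tested genes had 16362 bp, but they hold a smaller protein-coding share, so this is not a like comparison.

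The same libraries chose these genes, so what follows describes the set and supports nothing: the 392 genes had the same sign against both chow pairs. For 202 of the genes that rose, all 3 HFD libraries lay above all 4 chow libraries, an order that 16.1% of all tested genes showed. All 188 genes that fell had the HFD libraries below the chow libraries, an order that 18.3% of tested genes showed. The genes that rose did so by a median of 1.73 against chow replicates 1 and 2 and by 1.24 against replicates 3 and 4, whereas those that fell moved by -1.21 and -1.12. With each pair summed, 7 of the 392 genes passed, 1 higher and 6 lower, and at an unadjusted p under 0.05 there were 936 higher and 804 lower. Leaving out a single HFD library gave 62 higher and 38 lower without replicate 1, 32 and 24 without replicate 2, and 42 and 25 without replicate 3, and with chow replicates 1 and 2 left out the counts were 0 and 3. Of 71 genes named here that passed, 64 lost the call with pairs summed, at adjusted p from 0.055 to 0.32, and 68 lost it without chow replicates 1 and 2. Leaving out 1 LIRKO library lost between 14 (chow replicate 3) and 51 (chow replicate 1 or 2) of them, and each HFD library 46 to 50. The only members of any gene list past the threshold with pairs summed were Etv5, Igf1r and Npy, so every count of list members below loses its other genes in that setting. The summed level of 18 endothelial markers was 24.9 to 255 CPM on chow and 366 to 480 CPM on HFD, and the part of such cells in these counts was not tested.

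**Figure D1:**
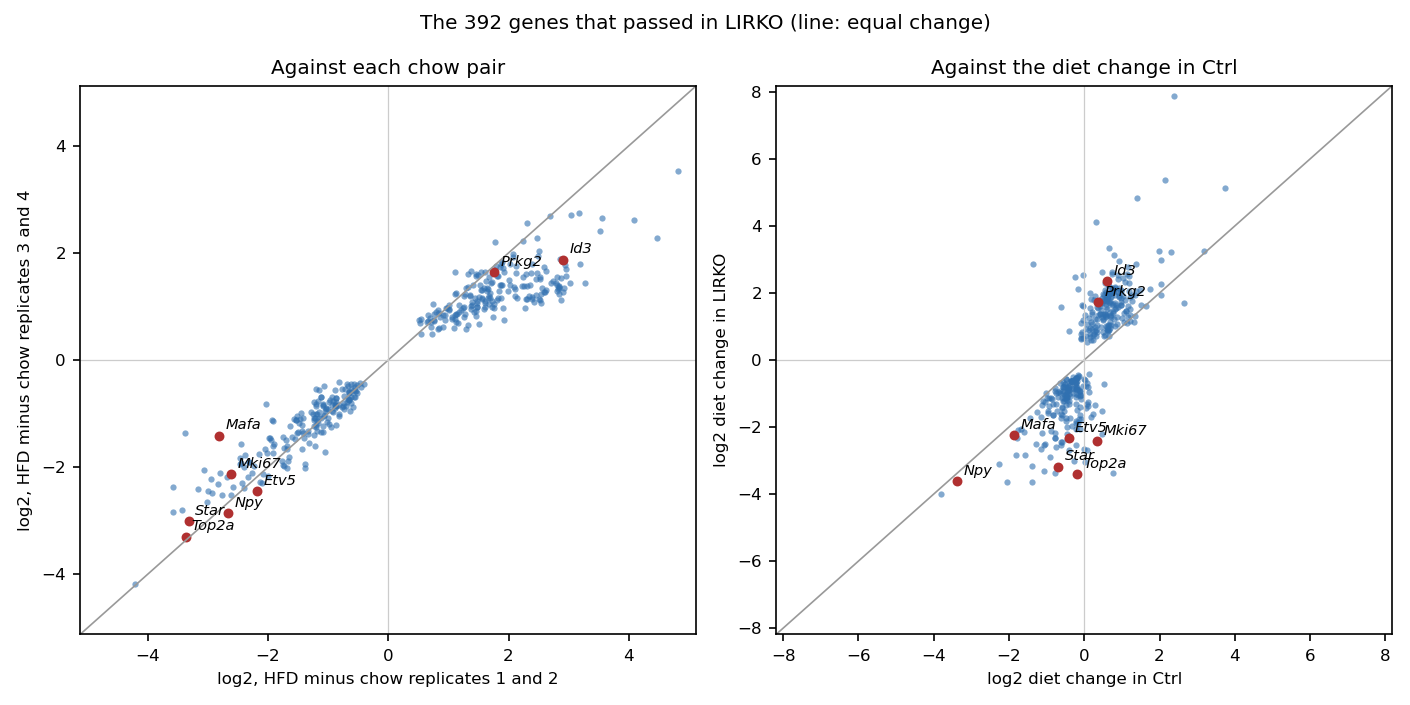
Each point is 1 of the 392 genes that passed in LIRKO. The left panel sets the log2 change against chow replicates 1 and 2 (x axis) beside that against replicates 3 and 4 (y axis). All its points, chosen on these libraries, lie in the 2 quadrants of equal sign. The right panel sets the log2 diet change in Ctrl (x axis) beside that in LIRKO (y axis). Most of its points lie farther from 0 on the LIRKO axis. Choosing the genes by their LIRKO change favours that, so the panel does not measure a difference between genotypes.

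The 7 genes that passed with the pairs summed were Etv5, Igf1r, Star, Cbs, Igsf11 and Npy, which fell, and Prkg2, which rose. Cbs and Igsf11 are named because they belong to this set, after their values were seen. Etv5 encodes an ETS-family transcription factor that is induced by growth factor signalling through ERK (ENSMUSG00000013089, GRCm38 chr16:22381309-22439719, minus strand). It stood at 19.3, 20.8, 24.1 and 24.0 CPM in the 4 chow libraries and at 4.01, 4.6 and 4.44 CPM in the 3 HFD libraries. The groups were far apart, and the fall was 5.06-fold (log2 -2.34, SE 0.20, adjusted p = 1.5e-05; with pairs summed, adjusted p = 0.00086). Ctrl beta cells had 4.35 to 8.01 CPM of Etv5 on chow and 3.82 to 5.33 CPM on HFD, so that the LIRKO HFD libraries lay within the Ctrl HFD range and the LIRKO chow libraries above every other library.

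Igf1r encodes the receptor for IGF1 (ENSMUSG00000005533, chr7:67952827-68233668, plus strand). The chow libraries held 704, 688, 520 and 522 CPM and the HFD libraries 120, 149 and 152 CPM. No library overlapped, and Igf1r fell 4.34-fold (log2 -2.12, SE 0.23, adjusted p = 0.00036; with pairs summed, 0.0063). In Ctrl it fell from a median of 547.9 CPM (331 to 726) to 270.3 CPM (252 to 372), a log2 change of -0.89 (adjusted p = 0.018). Etv5, Igf1r and Npy were the 3 of the 71 named genes past the threshold whose call held in all 17 alternatives run for this comparison.

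Star encodes the protein that carries cholesterol into mitochondria for steroid synthesis (ENSMUSG00000031574, chr8:25806555-25815982, plus strand). Its level was 142, 146, 117 and 115 CPM on chow against 14.3, 13.7 and 15.0 CPM on HFD, with HFD libraries close together and about an order of magnitude under every chow library. The fall was 9.06-fold (log2 -3.18, SE 0.45, adjusted p = 0.0030; with pairs summed, 0.041). In Ctrl the ranges were 20.9 to 78.0 CPM on chow and 14.8 to 42.6 CPM on HFD, and the diet change did not pass (log2 -0.68, adjusted p = 0.14).

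Cbs, cystathionine beta-synthase, makes the first step from homocysteine towards cysteine (ENSMUSG00000024039, chr17:31608894-31637238, minus strand). It was at 52.9, 55.4, 49.8 and 52.9 CPM on chow and 18, 19.6 and 17.6 CPM on HFD, a 2.86-fold fall without overlap (log2 -1.52, SE 0.21, adjusted p = 0.0023; with pairs summed, 0.045). Cth, the enzyme of the next step of that route, was at 1.08, 1.42, 1.54 and 1.07 CPM on chow and 0.232, 0.196 and 0.226 CPM on HFD. It fell by 2.54 on the log2 scale (adjusted p = 0.0052; with pairs summed, 0.055). Both enzymes were thus lower in every HFD library than in any chow library.

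Igsf11 encodes an adhesion molecule of the immunoglobulin family (ENSMUSG00000022790, chr16:38892671-39027159, plus strand). It had 23.0, 24.1, 16.4 and 17.4 CPM on chow and 9.06, 7.32 and 8.22 CPM on HFD (log2 -1.30, SE 0.18, adjusted p = 0.0023; with pairs summed, 0.041). Npy, neuropeptide Y, which immature beta cells express, was a low transcript at 1.05, 1.05, 1.14 and 1.32 CPM on chow and 0.029, 0.109 and 0.125 CPM on HFD (ENSMUSG00000029819, chr6:49822710-49829507, plus strand). It fell by 3.61 on the log2 scale (SE 0.48, adjusted p = 0.0023; with pairs summed, 0.036), and also fell in Ctrl (log2 -3.38, adjusted p = 0.00020).

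Prkg2, a cyclic GMP-dependent protein kinase, was the gene that rose with pairs summed (ENSMUSG00000029334, chr5:98929773-99037351, minus strand). The chow libraries were at 5.02, 5.01, 5.39 and 5.52 CPM, and the HFD libraries at 19.5, 16.0 and 16.5 CPM. All HFD values lay above all chow values, a 3.31-fold rise (log2 1.73, SE 0.20, adjusted p = 0.00046; with pairs summed, 0.036). Ctrl libraries lay between, from 6.17 to 12.2 CPM on chow, and their diet change did not pass (log2 0.38, adjusted p = 0.11).

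**Figure D2:**
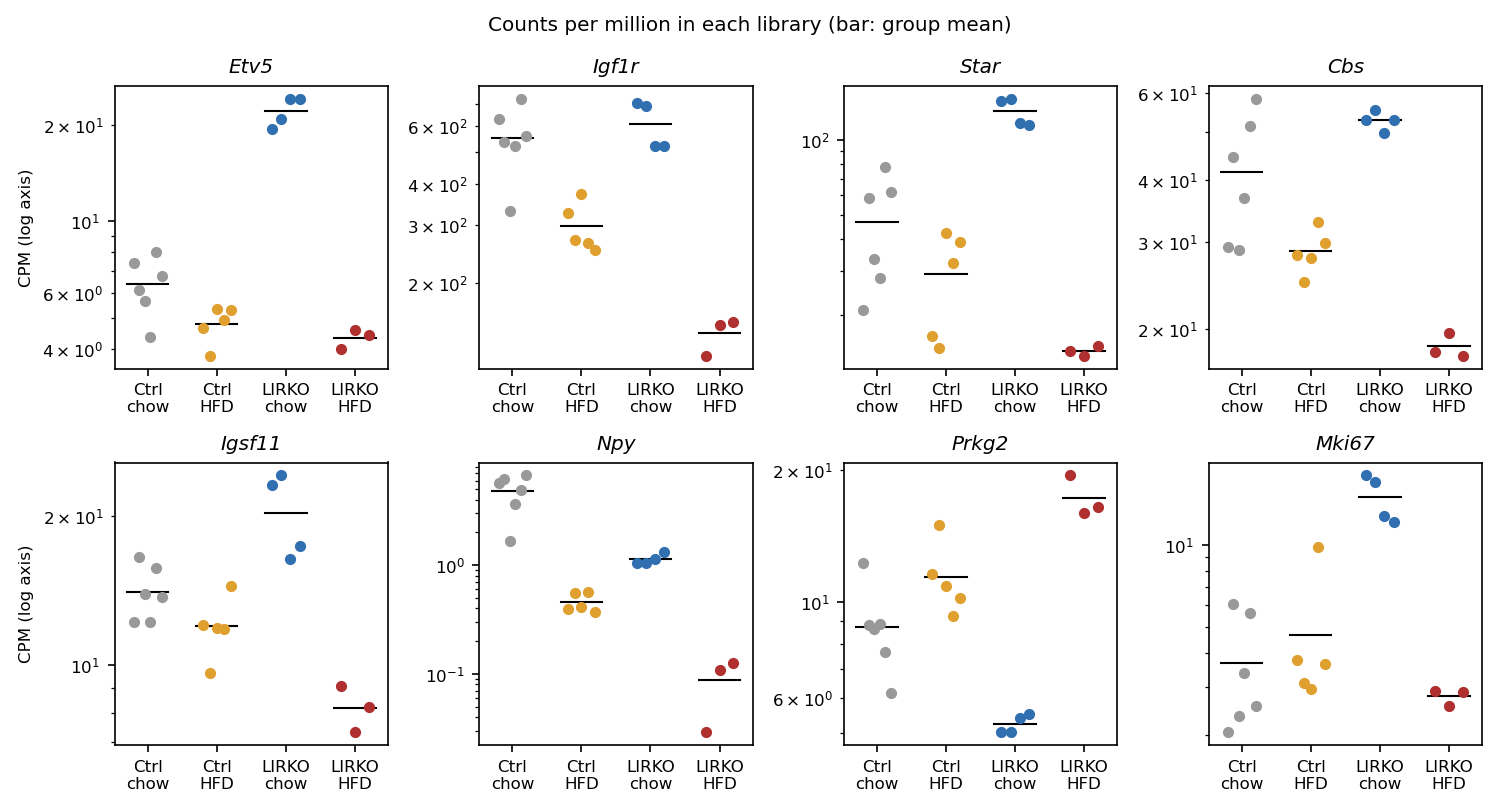
Points are CPM of single libraries on a log axis, in the 4 groups, and bars are group means, for the 7 genes that passed with chow pairs summed and for Mki67. In each panel the LIRKO HFD points lie wholly below, or for Prkg2 above, the LIRKO chow points.

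Genes of mitosis were the list with the most members that fell. Of 33 genes of the G2 and M phases, 32 were tested, 15 fell (beside 0.975% of all tested genes) and none rose, and 31 of 32 had a log2 change below 0, with a median of -1.74 beside 0.03 over all tested genes. With the pairs summed none of the 32 passed (median -1.76), nor did any with LIRKO_HFD replicate 1 left out (median -1.61). Of 30 S phase genes, which serve DNA replication, none passed and the median was -0.17; the difference between the lists was not tested. None of 18 G1 cyclins and inhibitors of cyclin-dependent kinases passed either (median -0.12), among them Ccnd2, the main D cyclin of beta cells, at 825, 844, 788 and 810 CPM on chow and 589, 471 and 502 CPM on HFD (log2 -0.65, adjusted p = 0.082).

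Top2a, the topoisomerase that untangles chromosomes, was at 13.2, 12.9, 12.2 and 12.7 CPM on chow and 0.842, 1.31 and 1.45 CPM on HFD. It fell by 3.40 on the log2 scale (SE 0.64, adjusted p = 0.015; with pairs summed, 0.14). Mki67, the gene of the division marker Ki-67, was at 17.9, 16.9, 12.8 and 12.1 CPM on chow and 2.90, 2.55 and 2.88 CPM on HFD. It fell by 2.43 on the log2 scale (SE 0.45, adjusted p = 0.013; with pairs summed, 0.13). The HFD libraries agreed closely with one another for both genes, and no HFD library reached the lowest chow library.

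Further members are named after their values were seen, to show the range of roles. Cdk1, the mitotic kinase, fell (log2 -2.67, adjusted p = 0.019), as did its partner Ccnb1 (log2 -2.50, adjusted p = 0.033). The kinetochore genes Cenpe, Cenpf and Ndc80 also fell (log2 -1.69, -3.0 and -2.07; adjusted p = 0.014, 0.036 and 0.024). These were low transcripts: Cdk1 was at 1.74, 2.52, 1.82 and 2.0 CPM on chow and 0.232, 0.305 and 0.401 CPM on HFD. In bulk libraries such as these, fewer dividing cells and less of each RNA per cell cannot be told apart.

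The promoters of mitotic genes are known for CCAAT boxes, the site of the factor NF-Y, and windows of 4 genes that fell are printed to show them. Each is the stretch of 250 bases before the start site, from RefSeq on GRCm38.p6, 5′ to 3′ on the gene's strand, with CCAAT or its reverse complement ATTGG in capitals.
Top2a, chr11:99024190-99024439, minus strand: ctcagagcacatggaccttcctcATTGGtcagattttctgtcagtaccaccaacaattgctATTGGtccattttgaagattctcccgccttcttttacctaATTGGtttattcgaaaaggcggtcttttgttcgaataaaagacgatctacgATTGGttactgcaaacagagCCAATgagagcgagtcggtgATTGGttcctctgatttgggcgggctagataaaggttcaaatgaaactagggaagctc
Cdk1, chr10:69352913-69353162, minus strand: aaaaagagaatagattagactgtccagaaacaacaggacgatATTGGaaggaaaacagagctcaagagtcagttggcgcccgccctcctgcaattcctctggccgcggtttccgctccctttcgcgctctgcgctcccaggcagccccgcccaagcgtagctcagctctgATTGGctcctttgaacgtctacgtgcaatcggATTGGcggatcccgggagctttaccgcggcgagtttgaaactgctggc
Ccnb1, chr13:100786487-100786736, minus strand: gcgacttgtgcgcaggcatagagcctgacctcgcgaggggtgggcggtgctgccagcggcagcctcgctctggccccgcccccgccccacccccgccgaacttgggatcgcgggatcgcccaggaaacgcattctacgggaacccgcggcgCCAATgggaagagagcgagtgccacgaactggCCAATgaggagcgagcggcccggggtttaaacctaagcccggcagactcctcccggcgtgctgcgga
Cenpf, chr1:189688087-189688336, minus strand: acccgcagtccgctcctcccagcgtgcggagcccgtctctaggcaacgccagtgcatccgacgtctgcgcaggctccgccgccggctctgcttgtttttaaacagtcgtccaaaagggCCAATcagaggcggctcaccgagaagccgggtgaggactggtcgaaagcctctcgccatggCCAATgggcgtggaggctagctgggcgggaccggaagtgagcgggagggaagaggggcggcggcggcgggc
The Top2a window held 6 such boxes, that of Cdk1 3, and those of Ccnb1 and Cenpf 2 each. A window was found for 27 of the 32 tested mitotic genes, and 22 of them (81.5%) held at least 1 box on either strand; of the 13 members that fell and had a window, 11 did (84.6%). Over 27025 genes with a window the share was 37.5%. A match describes the letters in the window and is not evidence of binding.

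The integrated stress response is the set of genes that the factor ATF4 turns on when amino acids or protein folding fall short. Of 30 tested, 6 fell (beside 0.975% of all tested genes) and none rose, 29 had a log2 change below 0, and the median was -0.56. Trib3, a pseudokinase that restrains the response, was at 214, 230, 232 and 217 CPM on chow and 101, 141 and 124 CPM on HFD (log2 -0.87, adjusted p = 0.017). Psat1 and Psph, both enzymes of serine synthesis, fell (log2 -0.94 and -1.14, adjusted p = 0.019 and 0.024). Chac1, which degrades glutathione, and Ppp1r15a, which reverses the block on translation, fell (log2 -0.62 and -1.02, adjusted p = 0.021 and 0.024). Psph, Chac1 and Ppp1r15a were named after their values were seen, and Cth, given above, was the sixth member that fell.

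Aminoacyl-tRNA synthetases, which charge tRNAs with amino acids and many of which ATF4 also drives, showed 4 of 20 members that fell (again beside 0.975% of all tested genes), none that rose, and all 20 below 0 (median -0.46). Wars, for tryptophan, was at 306, 330, 312 and 301 CPM on chow and 129, 149 and 143 CPM on HFD, with no overlap (log2 -1.16, adjusted p = 0.0058). Tars, Lars and Nars, for threonine, leucine and asparagine, fell (log2 -0.73, -0.71 and -0.63; adjusted p = 0.032, 0.038 and 0.044); Nars was named after its value was seen. For both lists, summing the pairs left no member past the threshold (medians -0.57 and -0.47), and leaving out LIRKO_HFD replicate 1 left 3 and 1.

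The site most often described for ATF4 pairs with C/EBP factors on TGATGNAA, and 2 members that fell held it in their 250-base window. They are printed as above, with the site in capitals; in both it reads on the opposite strand.
Chac1, chr2:119350992-119351241, plus strand: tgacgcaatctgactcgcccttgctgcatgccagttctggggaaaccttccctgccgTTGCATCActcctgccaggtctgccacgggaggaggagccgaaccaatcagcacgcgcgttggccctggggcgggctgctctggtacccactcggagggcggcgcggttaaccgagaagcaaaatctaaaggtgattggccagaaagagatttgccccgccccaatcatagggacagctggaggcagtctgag
Tars, chr15:11399659-11399908, minus strand: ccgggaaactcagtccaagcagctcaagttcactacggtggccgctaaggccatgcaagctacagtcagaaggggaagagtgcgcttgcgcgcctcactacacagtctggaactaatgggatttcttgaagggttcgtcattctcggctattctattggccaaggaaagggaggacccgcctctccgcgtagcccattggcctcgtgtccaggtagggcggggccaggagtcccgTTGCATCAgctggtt
In Chac1 the site began 193 bases before the start, and in Tars 15 bases before it. Of the 27 ATF4 response genes with a window, 8 (29.6%) held the site on either strand, as did 3 of 12 synthetases (25%) and 3.91% of all genes with a window. Among the 5 ATF4 genes that fell and had a window, 1 held it.

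**Figure D3:**
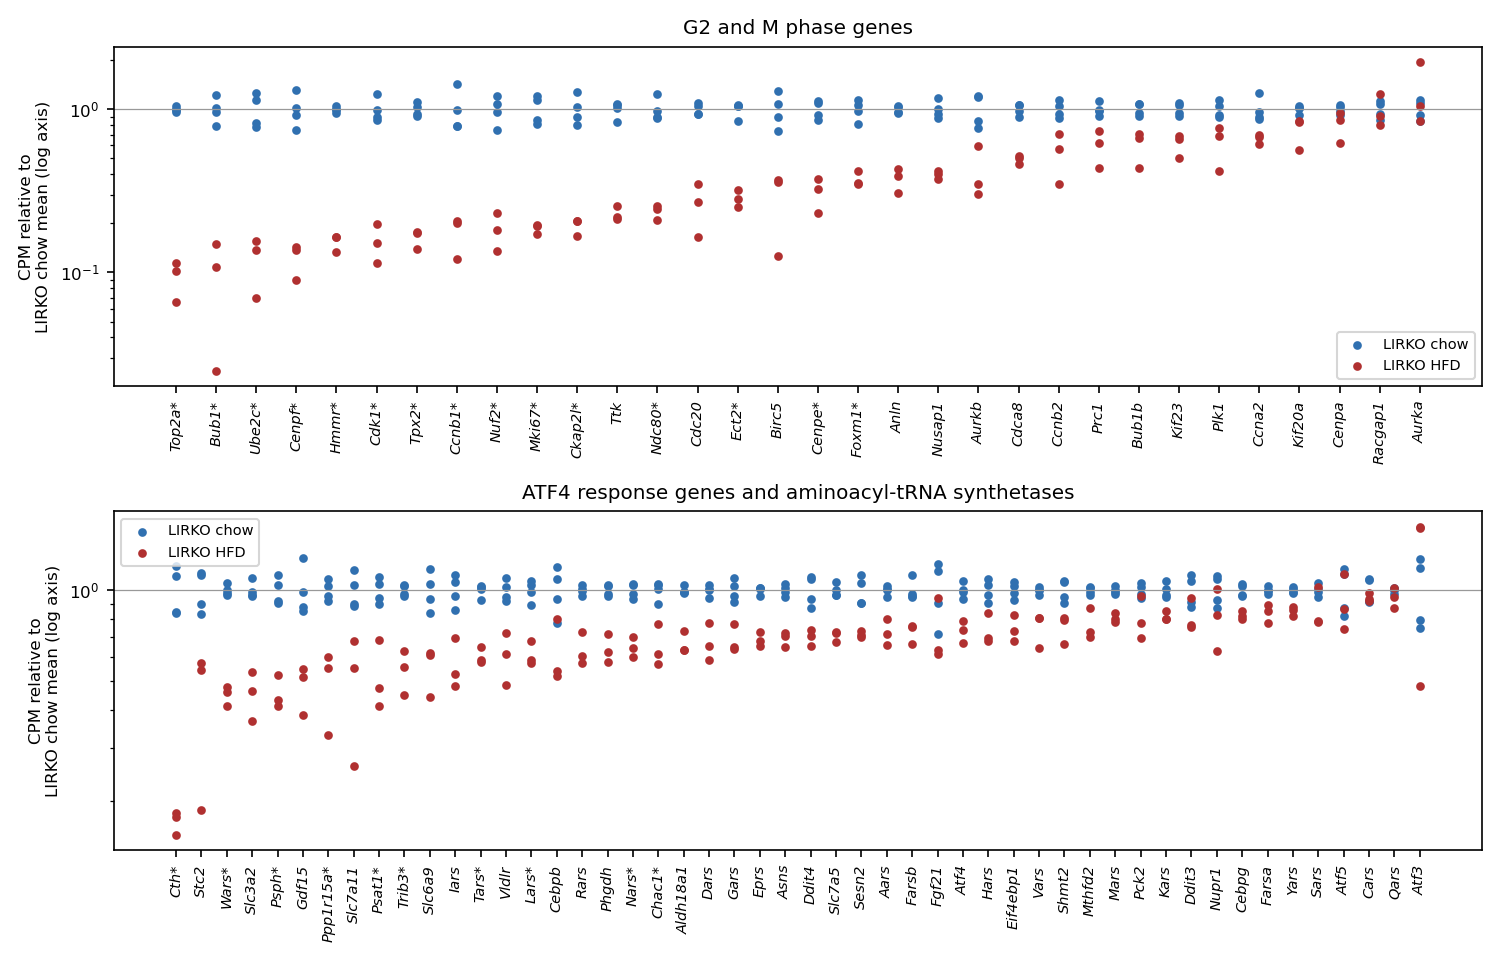
Each column is a gene and each point a library, as CPM divided by the mean of the 4 LIRKO chow libraries, on a log axis; an asterisk marks an adjusted p under 0.05. HFD points lie below the chow points for most mitotic genes, and for most ATF4 response genes and synthetases by a smaller ratio.

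Among 35 chaperones and factors of protein disposal in the endoplasmic reticulum, 34 had a log2 change below 0 and the median was -0.49. Past the threshold, 2 fell, beside 0.975% of all tested genes: Sdf2l1 (log2 -0.98, adjusted p = 0.022) and Creld2 (log2 -0.93, adjusted p = 0.033). Sdf2l1, a partner of the chaperone BiP, was at 128, 137, 129 and 115 CPM on chow and 69.1, 64.6 and 59.8 CPM on HFD. Creld2 was at 214, 227, 268 and 247 CPM on chow and 115, 140 and 123 CPM on HFD. The HFD libraries of both genes lay below all chow libraries, and neither gene passed with pairs summed (adjusted p = 0.20 and 0.21).

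In insulin and IGF signalling, 2 of 33 tested genes fell, Igf1r and Pappa2, beside 0.975% of all tested genes. The list's median was -0.16. Pappa2 encodes a protease that frees IGF from its binding proteins. It was at 316, 320, 339 and 374 CPM on chow and 73.4, 70.2 and 98.7 CPM on HFD, without overlap, and fell by 2.06 on the log2 scale (SE 0.44, adjusted p = 0.022; with pairs summed, 0.19). Irs2, the adaptor under the insulin and IGF1 receptors, was at 61.2, 62.4, 66.5 and 71.0 CPM on chow and 28.2, 46.7 and 54.7 CPM on HFD, and did not pass (log2 -0.60, adjusted p = 0.34).

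Feedback genes of the ERK pathway, which are switched on by it and restrain it, had 3 of 18 members that fell (median -0.17), beside 0.975% of all tested genes: Etv5, Dusp4 and Spred2. Dusp4, a phosphatase of ERK, was at 56.8, 58.5, 72.0 and 72.5 CPM on chow and 9.46, 22.7 and 26.4 CPM on HFD (log2 -1.73, adjusted p = 0.040). Spred2, an inhibitor of Ras signalling, was at 20.4, 21.8, 23.7 and 25.5 CPM on chow and 7.34, 9.59 and 12.7 CPM on HFD (log2 -1.21, adjusted p = 0.038). LIRKO_HFD replicate 1 was the lowest library for both. With pairs summed their adjusted p were 0.24 and 0.25.

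Beta cell identity and maturity factors gave 1 member of 23 that fell, Mafa, beside 0.975% of all tested genes, and a median of 0.01. Mafa, a transcription factor of mature beta cells that binds the insulin gene, was at 37.6 and 45.9 CPM in chow replicates 1 and 2, 16.4 and 14.9 CPM in replicates 3 and 4, and 8.71, 4.36 and 5.19 CPM on HFD. It fell by 2.24 (SE 0.57, adjusted p = 0.048), and by less against replicates 3 and 4 than against 1 and 2 (log2 -1.41 and -2.81). Other factors of this kind gave values that did not pass: Pdx1 -0.06 (adjusted p = 0.90), Nkx6-1 0.37 (0.60), Ucn3 -0.03 (0.97) and Slc2a2 -0.76 (0.38). Both insulin genes also missed the threshold, Ins1 at -0.73 (adjusted p = 0.26) and Ins2 at -0.38 (0.52), as did the incretin receptor gene Glp1r at -0.63 (0.60).

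Of 19 genes of the insulin granule and of prohormone processing, 3 fell (0.975% of all tested genes did), none rose and 17 were below 0 (median -0.53). None of the 3 passed with pairs summed or without LIRKO_HFD replicate 1. Scg3, which helps load hormones into granules, fell by 0.58 (adjusted p = 0.046). Sytl4 and Mlph, both effectors that tie Rab proteins on granules to the transport and docking machinery, fell (log2 -1.33 and -1.74, adjusted p = 0.040 and 0.016). Sytl4 was at 404, 425, 302 and 318 CPM on chow and 162, 114 and 157 CPM on HFD, again with no overlap. Of 38 channel genes 2 fell (median -0.22), beside 0.975% of all tested genes. They were Mcoln3, an endolysosomal cation channel (log2 -2.83, adjusted p = 0.0081), and the potassium channel gene Kcnb2 (log2 -0.82, adjusted p = 0.044).

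Of 15 tested markers of immature or dedifferentiated beta cells, 2 fell, Npy and Mycl, beside 0.975% of all tested genes, and none rose. The list leaned upward, with 10 of 15 above 0 and a median of 0.20, which was not tested. Scaling by total counts gave 3 higher and 2 lower. Mycl, a MYC-family factor, fell from 0.192 to 0.399 CPM on chow to 0.029 to 0.10 CPM on HFD (log2 -2.22, adjusted p = 0.026). Aldh1a3, often used as such a marker, was at 79.5, 82.1, 93.5 and 96.7 CPM on chow and 52.9, 44.4 and 54.8 CPM on HFD. The groups did not overlap but the change did not pass (log2 -0.80, SE 0.74, adjusted p = 0.60), and it passed in 1 of 16 alternatives. The SE uses a spread shared with the Ctrl libraries, where Ctrl_Chow replicate 3 had 21.1 CPM beside 1.14 to 2.19 CPM in its group. The part of that library in the SE was not tested. Cck, a gut hormone gene that beta cells can express, was at 0.759, 0.823, 1.34 and 1.10 CPM on chow and 1.80, 8.52 and 6.11 CPM on HFD (log2 2.44, adjusted p = 0.081). C1qtnf1, which encodes a secreted protein of the C1q and tumour necrosis factor family, gave a value of -0.55 (adjusted p = 0.58). Among 21 genes normally silenced in beta cells 1 rose, Fcgrt (log2 1.94, adjusted p = 0.040), beside 1.06% of all tested genes. The list's median was 0.70. It was 0.34 without chow replicates 1 and 2 and 1.56 without chow replicates 3 and 4. The part of cells other than beta cells in these values was not tested.

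The largest falls outside these lists included Pdyn, the gene of prodynorphin, an opioid peptide precursor. It was at 370, 397, 361 and 353 CPM on chow and 43.3, 73.8 and 76.3 CPM on HFD (log2 -2.52, adjusted p = 0.023). Nrcam, a neuronal adhesion molecule, was at 35.3, 38.5, 27.6 and 30.0 CPM on chow and 1.39, 7.28 and 8.60 CPM on HFD (log2 -2.51, adjusted p = 0.019). Ttyh1, Ipcef1 and Msln fell (log2 -2.18, -2.65 and -2.32; adjusted p = 0.0052, 0.0052 and 0.017), as did Fmn1 and Cyp4f39 (log2 -1.76 and -1.73, adjusted p = 0.039 and 0.031). For Nrcam and Msln the lowest value by far was LIRKO_HFD replicate 1.

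Lipid genes moved little at the level of single calls. Of 20 tested genes of lipid uptake and storage 1 fell, Lpl, lipoprotein lipase, beside 0.975% of all tested genes. Lpl was at 132, 136, 100 and 95.4 CPM on chow and 54.3, 49.3 and 43.8 CPM on HFD. It fell by 1.24 on the log2 scale (SE 0.24, adjusted p = 0.015, and 0.15 with pairs summed). The list's median was 0.38. No member passed among 22 genes of fatty acid synthesis (median -0.22), 28 of fatty acid oxidation (-0.10), 28 of cholesterol handling (-0.18), 74 subunits of oxidative phosphorylation (0.11) or 77 cytosolic ribosomal proteins (0.24). Without LIRKO_HFD replicate 1 the medians of the last pair of lists turned to -0.17 and -0.04. Txnip, which glucose induces, was at 73.7, 69.8, 98.7 and 95.4 CPM on chow and 98.6, 134 and 141 CPM on HFD (log2 0.56, adjusted p = 0.19). Srxn1, which repairs oxidised peroxiredoxins, was the 1 of 28 antioxidant genes that fell (log2 -0.91, adjusted p = 0.018), beside 0.975% of all tested genes. The median of that list was -0.06. In all, 17 of 34 process lists had no member past the threshold.

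Of 26 tested genes of activin and BMP signalling and its Id targets, 4 rose, beside 1.06% of all tested genes, and none fell (median 0.50). None of the 4 passed with pairs summed, and 1 did without LIRKO_HFD replicate 1. Id3, an inhibitor of basic helix-loop-helix factors and a BMP target, was at 1.42, 1.20, 3.17 and 2.44 CPM on chow and 8.85, 12.1 and 10.8 CPM on HFD. It rose by 2.35 on the log2 scale (SE 0.35, adjusted p = 0.0046; with pairs summed, 0.075). Id2 was at 27.4, 28.1, 22.8 and 21.9 CPM on chow and 44.6, 46.8 and 47.9 CPM on HFD (log2 0.89, adjusted p = 0.018). Smad6 and Bambi, both inhibitors of the pathway, rose by 1.81 and 1.06 (adjusted p = 0.027 and 0.046), and Bambi was named after its value was seen. Id3 and Smad6 are also well expressed in endothelial cells, whose markers, given below, were higher on HFD; the part of these cells in the result was not tested.

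Immediate-early genes, which respond within minutes to depolarisation, calcium or growth factors, had 3 of 24 members that rose and 1 that fell (median 0.40), beside 1.06% and 0.975% of all tested genes. With pairs summed none passed. Arc was at 7.81, 7.33, 5.95 and 5.27 CPM on chow and 27.5, 26.4 and 24.9 CPM on HFD (log2 1.99, SE 0.35, adjusted p = 0.0097; with pairs summed, 0.17). Egr2 and Egr3, zinc-finger factors, rose by 2.50 and 2.78 (adjusted p = 0.0078 and 0.041), and were lowest among HFD libraries in replicate 1, at 1.80 and 0.842 CPM. Crem, a regulator of cyclic AMP responses, fell by 1.08 (adjusted p = 0.031). Egr3 was named after its value was seen. Cish, a STAT5 target that prolactin and growth hormone induce, was at 15.1, 14.3, 21 and 19.2 CPM on chow and 30.2, 34.3 and 33.9 CPM on HFD. It rose by 0.91 (adjusted p = 0.0097) as the 1 of 15 genes of that pathway past the threshold (median 0.00), beside 1.06% of all tested genes.

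**Figure D4:**
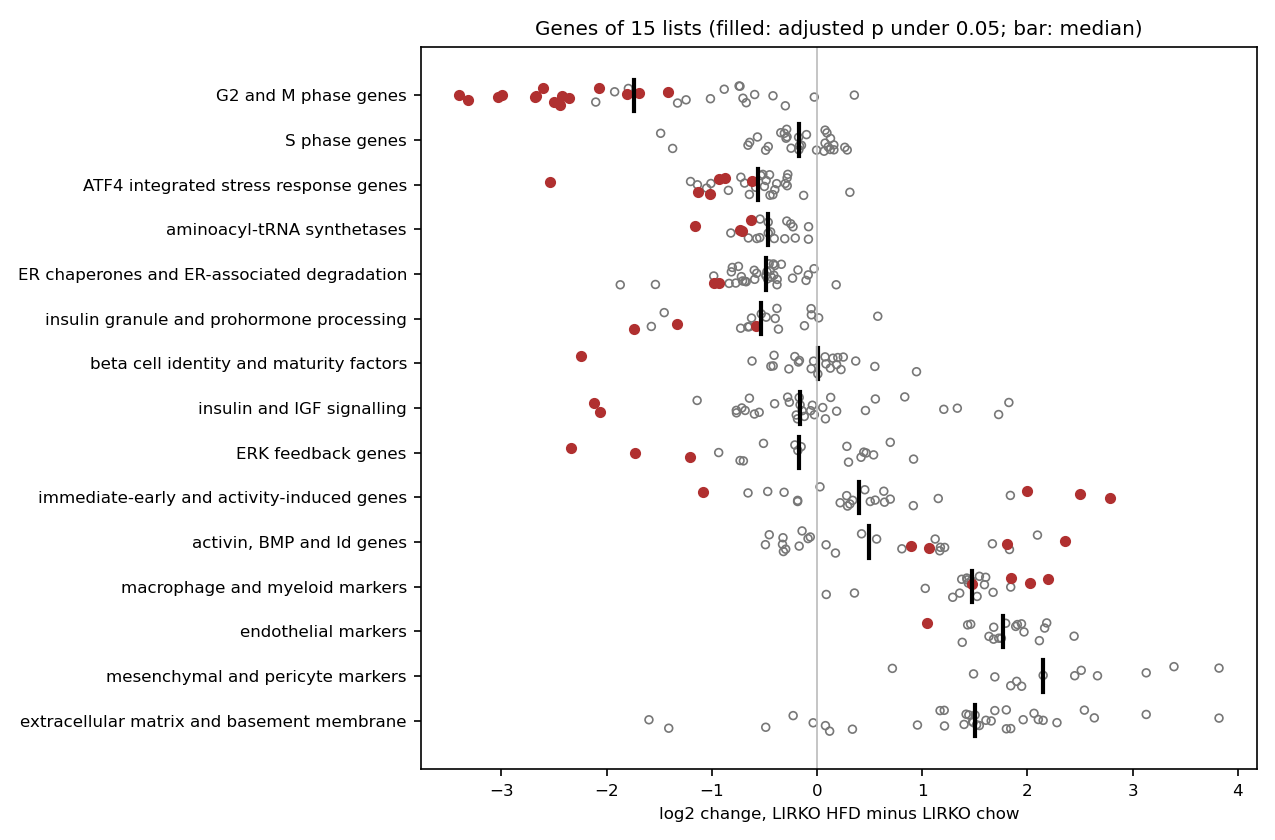
Points are tested genes of 15 lists by their log2 change on HFD in LIRKO (x axis); filled points passed an adjusted p of 0.05 and bars are medians. Mitotic genes spread to the left with a median of -1.74, and markers of macrophages, endothelial and mesenchymal cells lie to the right with medians of 1.47, 1.77 and 2.15.

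For cells other than beta cells, the summed level of each whole marker list is given, with medians for some lists and with single members. All 20 macrophage and myeloid markers had a log2 change above 0 (median 1.47) and 4 rose, beside 1.06% of all tested genes: Lyz2, C1qc, Tyrobp and Aif1. With pairs summed none passed. The 2 most abundant members did not pass: Cd74, at 15.4, 17.0, 71.2 and 60.1 CPM on chow and 73.9, 150.4 and 128 CPM on HFD (log2 1.52, adjusted p = 0.19), and C1qa, at 59.1, 63.5, 81.4 and 76.1 CPM on chow and 89.3, 72.5 and 61.4 CPM on HFD (log2 0.09, adjusted p = 0.82), whose groups overlap. C1qc, a complement component made by macrophages, was at 2.74, 2.59, 9.48 and 7.30 CPM on chow and 18.3, 22.5 and 18.9 CPM on HFD (log2 1.84, adjusted p = 0.027). Tyrobp, a myeloid signalling adaptor, was at 1.40, 1.25, 3.57 and 3.07 CPM on chow and 10.8, 10.3 and 7.37 CPM on HFD (log2 2.03, adjusted p = 0.018). Chow replicates 1 and 2 were lowest and the HFD libraries highest for both. Aif1 (log2 2.19, adjusted p = 0.034) and Lyz2, lysozyme (log2 1.47, adjusted p = 0.038), were named after their values were seen.

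Among genes with a mean log2 CPM of at least 2, the 15 largest rises comprised Id3, Tyrobp, Arc, C1qc and Prkg2, given above, and 10 more. These included Clec7a, a receptor for fungal glucans (log2 2.14, adjusted p = 0.018), Acp5, a lysosomal phosphatase (2.11, 0.011), Vsir (1.99, 0.019), Cyba, an NADPH oxidase subunit (1.94, 0.038), and Apoe (1.66, 0.033). Apoe was at 43.8, 43.6, 128 and 106 CPM on chow and 238, 277 and 244 CPM on HFD. The remaining ones were Dhrs3, a retinaldehyde reductase (2.07, 0.015), Mef2c (1.92, 0.038), Rbms3 (1.76, 0.024), Cebpa (1.71, 0.0052) and the transporter gene Abcc3 (1.70, 0.0093). None of these 10 passed with pairs summed.

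The summed level of the 20 myeloid markers was 148, 149, 375 and 327 CPM in the chow libraries and 480, 636 and 565 CPM in the HFD libraries. All 18 endothelial markers were above 0 (median 1.77), and 1 rose, Esam (log2 1.04, adjusted p = 0.031), beside 1.06% of all tested genes. Esam was named after its value was seen and did not pass with pairs summed (adjusted p = 0.21). The endothelial sums were 24.9, 29.2, 255 and 219 CPM on chow and 480, 431 and 366 CPM on HFD. For 13 mesenchymal and pericyte markers, all above 0 with none past the threshold (median 2.15), they were 1.67, 1.67, 25 and 20.6 CPM on chow and 38.5, 43.6 and 43.9 CPM on HFD. The most abundant members of these 2 lists, Kdr and Esm1 (log2 1.68 and 2.11, adjusted p = 0.30 and 0.16) and Rgs5 and Pdgfrb (1.49 and 1.94, adjusted p = 0.35 and 0.25), did not pass. All 3 sums were thus lowest in chow replicates 1 and 2, intermediate in replicates 3 and 4, and highest on HFD. The lymphocyte sum had the same order at a low level, with 4.9, 4.89, 10.3 and 9.14 CPM on chow and 13.1, 16.2 and 17.7 CPM on HFD. Extracellular matrix genes had the same direction, with 30 of 35 above 0 and a median of 1.5, and none passed. The part of these cells in the genes that rose was not tested.

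Markers of islet endocrine cells other than beta cells did not share 1 order. The sum of 14 alpha cell markers was 1060, 1090, 2470 and 2670 CPM on chow and 1090, 3350 and 4200 CPM on HFD, so LIRKO_HFD replicate 1 resembled chow replicates 1 and 2. Glucagon, Gcg, was at 116, 104, 1480 and 1670 CPM on chow and 287, 2590 and 3370 CPM on HFD and did not pass (log2 1.31, SE 1.06, adjusted p = 0.54), nor did Ttr (log2 -0.58, adjusted p = 0.15). The PP cell markers Ppy and Pyy had log2 values of 1.57 and 1.46 (adjusted p = 0.27 and 0.15). The PP list summed to 457, 454, 689 and 596 CPM on chow and 672, 1270 and 1080 CPM on HFD, close to the order of the myeloid and endothelial sums. Pyy was at 65.6, 62.9, 128 and 111 CPM on chow and 173, 320 and 265 CPM on HFD, while Ppy overlapped between the diets. Delta cell markers summed to 256 to 300 CPM on chow and 227 to 240 CPM on HFD. Hhex, a defining factor of that cell, had 0 counts in all 7 libraries, while Sst had 28597 counts on chow and 15829 on HFD, and Rbp4 3407 and 2830. The value of Hhex therefore does not tell whether delta cells were present. Acinar markers summed to 82.6 to 396 CPM on chow and 112 to 355 CPM on HFD. Ductal markers summed to 1690 to 1910 CPM on chow and 1450 to 1610 CPM on HFD, and Schwann and neuronal markers to 140 to 144 CPM and 111 to 127 CPM. Erythrocyte markers summed to 0.196 to 0.719 CPM on chow and 0.406 to 0.877 CPM on HFD. Of the most abundant members of the remaining lists, those given here did not pass: Sst -0.39 (delta, adjusted p = 0.69), Bhlha15 -0.25 and Ctrb1 -0.01 (acinar, 0.53 and 1.0), Krt7 -0.20 and Krt18 0.03 (ductal, 0.55 and 0.96), Ptprc 1.41 and Cd79a 0.41 (lymphocyte, 0.25 and 0.65), Mbp -0.38 (Schwann and neuronal, 0.32), and Alas2 0.35 (erythrocyte, 0.78). The haemoglobin gene Hbb-bs stood at 0 to 0.18 CPM on chow and 0.029 to 0.376 CPM on HFD.

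**Figure D5:**
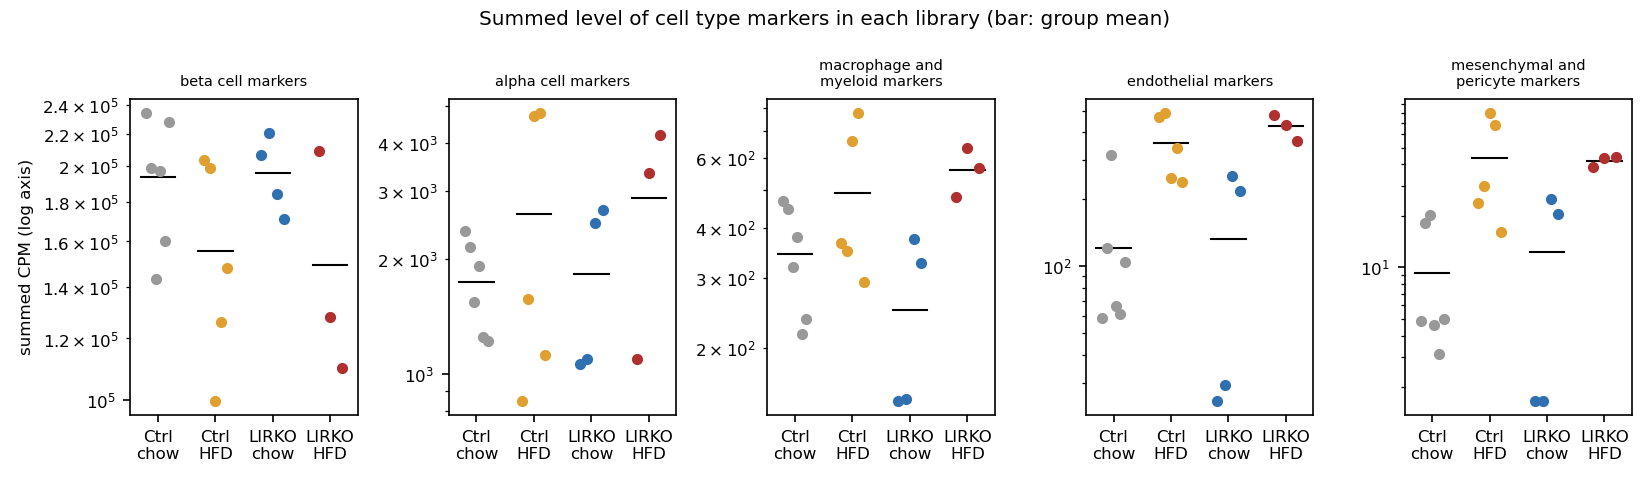
Points are the summed CPM of each marker list in single libraries on a log axis, by group, with bars at group means. In LIRKO the macrophage, endothelial and mesenchymal sums are higher in all 3 HFD libraries than in any chow library, while the alpha and beta cell sums overlap.

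In Ctrl beta cells the same diet change gave 1075 genes higher (5.57%) and 839 lower (4.35%), from more libraries and sharing only the spread and the scaling with the LIRKO comparison. Those counts fell to 25 and 9 when Ctrl_HFD replicates 1 and 2 were left out. Of the 392 genes past the threshold in LIRKO, 121 also passed in Ctrl, which is 30.9% of the LIRKO set and 6.32% of the Ctrl set, and 120 of them had the same sign. The exception was Napb, an adaptor of membrane fusion, named after its value was seen. It stood at 35.1, 32.0, 40.5 and 41.9 CPM on chow and 17.5, 24.0 and 26.4 CPM on HFD in LIRKO (log2 -0.72, adjusted p = 0.044), and rose in Ctrl (log2 0.52, adjusted p = 0.039). Its LIRKO call was lost in 14 of 17 alternatives, pairs summed (adjusted p = 0.25) and each single LIRKO library left out among them. The genes that rose in LIRKO had a median Ctrl change of 0.65, and those that fell one of -0.44. Choosing genes by their LIRKO change favours larger values there, so these medians do not measure a difference between genotypes.

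Whether the diet change differed by genotype was tested with the interaction of diet and genotype. It passed for 1 gene of 19284 (0.00519%), Etv5, whose log2 change in LIRKO minus that in Ctrl was -1.93 (adjusted p = 0.0051). That call was lost with pairs summed (adjusted p = 0.11), without chow replicates 3 and 4 (0.086) and without LIRKO_HFD replicate 1 (0.057). At an unadjusted p under 0.05 there were 1065 genes (5.52%), and DESeq2 called 47. For the mitotic genes, the Ctrl list median was 0.06 with none of 32 past the threshold, beside -1.74 in LIRKO. The difference itself did not pass for Mki67 (-2.77, adjusted p = 0.14) or Top2a (-3.20, adjusted p = 0.37). Several other lists had a median of the same sign in Ctrl, in some of them of unlike size, and the difference between genotypes was not tested for any list. Of all tested genes, 4.35% fell and 5.57% rose past the threshold in Ctrl, beside 0.975% and 1.06% in LIRKO, so the list counts are not alike in background. Without Ctrl_HFD replicates 1 and 2 the Ctrl counts over all genes were 25 higher and 9 lower. Medians in Ctrl and LIRKO were -0.40 and -0.49 for chaperones (12 and 2 fell) and -0.38 and -0.46 for synthetases (6 and 4 fell). For granule genes they were -0.43 and -0.53 (5 and 3 fell), and for endothelial markers 1.68 and 1.77 (5 and 1 rose). Matrix genes had 1.66 and 1.5, ATF4 response genes -0.265 and -0.56, and myeloid markers 0.69 and 1.47.

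Interaction values of the other genes with pairs summed past the threshold also missed it: Igf1r -1.23 (adjusted p = 0.31), Star -2.50 (0.17), Cbs -0.99 (0.44), Igsf11 -1.07 (0.17), Npy -0.23 (0.99) and Prkg2 1.35 (0.13). Napb gave -1.24 (0.13), Dusp4 -1.36 (0.81) and Aldh1a3 -2.41 (0.83). Levels in the 4 groups show what those values rest on: Mki67 was at 2.05 to 6.04 CPM in Ctrl on chow, 2.96 to 9.79 CPM in Ctrl on HFD, 12.1 to 17.9 CPM in LIRKO on chow and 2.55 to 2.90 CPM in LIRKO on HFD. Every LIRKO chow library was thus above every library of the other 3 groups, and the LIRKO HFD libraries lay below all Ctrl HFD libraries and within the Ctrl chow range.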

How the data were processed

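RNA-seq of sorted beta cells was deposited by the authors as raw read counts per Ensembl gene for 18 libraries. Reads were handled with STAR and featureCounts on GRCm38, per the submitters' processing notes; the sources used here name no versions or settings. Of 53090 identifiers, 52489 were named with GENCODE M21.

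Genes kept by filterByExpr (19284) were fitted with edgeR 4.0.16 in R 4.3.3 (TMM scaling, quasi-likelihood test, Benjamini-Hochberg adjustment, threshold 0.05) over all 18 libraries in 4 groups, with no covariates. CPM are counts scaled to a common total by TMM. The labels give no replicate numbers; libraries were numbered in accession order. DESeq2 1.42.0, other scalings, no filter, summed pairs and left-out libraries were alternatives.

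The comparison and gene lists were chosen with earlier results of these data known. Named genes were the 15 largest rises and falls past the threshold with a mean log2 CPM of at least 2, up to 3 members per process list, 2 per marker list, interaction genes and a fixed set of beta cell genes, with additions marked in the text. Some genes that this rule picks are not reported here. Promoter windows came from RefSeq (GRCm38.p6).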

Additional observations from a re-analysis of the deposited data

Results flagged for a closer look

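The diet change of Etv5 differed between genotypes by the interaction test: it was -1.93 on the log2 scale in LIRKO relative to Ctrl. The call did not hold with pairs summed, without LIRKO_Chow replicates 3 and 4, or without LIRKO_HFD replicate 1.

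A single library stood apart from its group for 4 gene and group sets of 129 examined (3.1%), all of them Ctrl sets. Most sets examined were LIRKO chow, where the close pairs hardly let a library be flagged. The share therefore cannot be set beside the 1 in 20 that chance flags. The test was not applied to the 3 LIRKO HFD libraries. Ctrl_HFD replicate 4 was highest for 3 genes: Top2a at 9.04 CPM beside 1.44 to 2.53 CPM in the others, Mki67 at 9.79 CPM beside 2.96 to 3.77 CPM, and Dusp4 at 27.3 CPM beside 7.45 to 12.8 CPM. All 3 enter the interaction values of these genes. Ctrl_Chow replicate 3 had 21.1 CPM of Aldh1a3 beside 1.14 to 2.19 CPM in the other Ctrl chow libraries. It enters the interaction value of Aldh1a3, and all of these Ctrl values enter the spread that the LIRKO comparison shares. The near-identical LIRKO chow pairs leave each of those libraries a close partner, so this measure could hardly single one out.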

How the results depend on the processing

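All 392 calls in LIRKO kept their sign in each alternative in which they were tested. These alternatives reuse the libraries that chose the genes, so the kept signs support nothing. The number past the threshold (204 higher, 188 lower) varied. Scaling by total counts gave 504 and 86 (and moved the median of all genes to 0.25), no filter on low counts 131 and 119, the DESeq2 Wald test 582 and 507, near-identical pairs summed 1 and 6, without Ctrl_HFD replicates 1 and 2 538 and 653, without LIRKO_Chow replicates 1 and 2 0 and 3, and only the 7 LIRKO libraries 1478 and 1925. Without LIRKO_Chow replicates 3 and 4, 602 were higher. Pairs summed and without Ctrl_HFD replicates 1 and 2, chosen after seeing the data, gave 11 and 48. Leaving out 1 LIRKO library gave 23 to 207 higher and 24 to 145 lower, and leaving out 1 Ctrl library 346 to 502 in all. In Ctrl (1075 and 839) these settings gave 65 and 49 with pairs summed, 25 and 9 without Ctrl_HFD replicates 1 and 2, and 0 and 1 with both.

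The interaction gave 0 genes higher and 1 lower (edgeR), 14 and 33 by DESeq2, 2 and 6 without Ctrl_HFD replicates 1 and 2, 0 lower with pairs summed or without LIRKO_Chow replicates 3 and 4, and 2 lower with pairs summed and without Ctrl_HFD replicates 1 and 2. Leaving out 1 library gave 0 to 1 higher and 0 to 3 lower.

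Values near 0 changed sign. By total counts these became 0.10 (Insr), 0.15 (Pdx1), 0.15 (Ucn3), and as list medians 0.0768 (insulin and IGF signalling), 0.0587 (ERK feedback), 0.155 (antioxidants), 0.246 (STAT5), 0.00711 (channels), 0.055 (S phase), 0.0971 (G1), 0.116 (fatty acid oxidation), 0.0307 (cholesterol) and 6.09e-05 (fatty acid synthesis); Ctrb1 became 0.19 and Krt7 0.00728. Without LIRKO_Chow replicates 1 and 2 they were 0.17 (Pdx1), 0.38 (Ucn3), 0.154 (antioxidants), 0.00577 (STAT5), 2.14 (Ctrb1), -0.0846 (C1qa) and -0.0412 (Alas2), by DESeq2 size factors 0.0129 (STAT5) and 0.0037 (Ctrb1), by the DESeq2 Wald test 0.0028 (Ctrb1), and with no filter -0.00224 (Krt18). The identity median was -0.11 without LIRKO_Chow replicates 3 and 4 and -0.13 without LIRKO_HFD replicate 1; in the same order oxidative phosphorylation was -0.12 and -0.173, and ribosomal proteins were -0.0404 in the latter. Without LIRKO_Chow replicates 3 and 4, Krt18 was -0.0281 and Cd79a -0.0683. Leave-one-out values ran from -0.29 to 0.0435 for Pdx1, -0.70 to 0.22 for Ucn3, -0.82 to 0.54 for Ctrb1, -0.0737 to 0.10 for Krt18, -0.0699 to 0.21 for C1qa, -0.29 to 0.71 for Cd79a and -0.53 to 0.13 for the Npy interaction. The cause was not tested.

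No paired analysis was possible because the labels give no replicate numbers. Low transcripts such as Npy, Mycl and Egr3 rest on few reads per library.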
